A study of Homo sapiens with 8 samples.

Results

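The 37 genes carried by human mitochondrial DNA (mtDNA) were examined in tumours grown from H2122, an established cell line of human lung cancer. They were taken as every row of the count files whose symbol starts with MT-, which gave 37 of 59050 gene rows. Of these, 13 encode proteins, 2 encode ribosomal RNAs and 22 encode transfer RNAs. All 8 tumours were H2122 xenografts from vehicle-treated hosts. In the parental group the genotype is given as WT (n = 4), and in the other group as SMARCA4 KO (n = 4), in which SMARCA4, the motor subunit of SWI/SNF complexes, was knocked out. The vehicle, the host strain, and whether the knockout cells were a clone are not given in the sources used here. Samples were taken as separate tumours from their titles, and p-values measure only the spread between them.

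Mitochondrial DNA is a small circular genome present in many copies per cell. Its proteins are core subunits of respiratory complexes I, III and IV and of the ATP synthase (complex V). All other subunits, and every protein that copies, transcribes, processes and translates mtDNA, come from nuclear genes. Transcription by the mitochondrial RNA polymerase gives long transcripts of nearly the whole heavy or light strand. Transfer RNAs lie between the messages and are cut out of them, which releases the mRNAs and rRNAs. Of the mRNAs, MT-ND6 alone is read from the light strand in the annotation used here.

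Library depth was 19785922 to 23191698 gene counts. SMARCA4 was at 198 to 235 CPM (counts scaled to library size with TMM factors) in parental and 22.3 to 31.0 CPM in knockout libraries, so every library was on its label's side. All 6 epithelial markers checked (EPCAM, CDH1, KRT7, KRT8, KRT18 and KRT19) had counts, with 2 of them called lower in the knockout group, and summed to 5747 to 6918 CPM in parental and 4627 to 6227 CPM in knockout libraries. The host species, and any step to separate host reads from tumour reads, are not given in the sources used here. Of the host cell types checked by human symbols, fibroblast markers summed to 179 to 606 CPM in the parental group and to 342 to 602 CPM in the knockout group. Leukocyte markers summed to 6.71 to 64.7 and 11.5 to 27.7 CPM, and skeletal muscle markers to 3.98 to 43.7 and 2.48 to 17.3 CPM. Endothelial markers summed to 7.24 to 17.97 and 8.67 to 15.2 CPM. Adipocyte and erythroid markers were near 0, with ADIPOQ and HBA2 at 0 in every library. The groups overlapped in all of these sums. Of the markers that passed the count filter, 1 of 4 fibroblast markers was called higher, and 1 of 2 endothelial markers and the 1 skeletal muscle marker were called lower. For these and the epithelial calls, 13% of all genes tested were called higher and 14.1% lower. In bulk tumours, fewer cells of a type and less RNA per cell cannot be told apart.

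The mtDNA genes lie end to end, and some share bases, so the sequences at their borders are shown first. MT-ATP8 (chrM:8366-8572) and MT-ATP6 (chrM:8527-9207) encode subunits of ATP synthase and share 46 bases. MT-ND4L (chrM:10470-10766) and MT-ND4 (chrM:10760-12137) encode subunits of complex I and share 7 bases. All coordinates are GENCODE 29 on GRCh38, the sequences are its transcripts, and the capitals mark the shared bases.
MT-ATP8, last 60 bases: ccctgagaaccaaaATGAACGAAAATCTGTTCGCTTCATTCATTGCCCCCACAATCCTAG
MT-ATP6, first 60 bases: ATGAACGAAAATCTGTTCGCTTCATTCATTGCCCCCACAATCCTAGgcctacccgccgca
MT-ND4L, last 30 bases: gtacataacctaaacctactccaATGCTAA
MT-ND4, first 30 bases: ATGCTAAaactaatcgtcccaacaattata

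A read inside the shared bases belongs to either gene, and the options used for counting are not given in the sources used here. The counts of the short partner stayed in a narrow ratio to those of the long partner. MT-ATP8 had 0.146 to 0.169 counts per count of MT-ATP6 over the 8 tumours, and MT-ND4L had 0.0973 to 0.114 per count of MT-ND4. The ranges of the groups overlapped for both ratios.

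Levels were compared between genes as CPM per kilobase of gene, averaged over 8 tumours. MT-CO3, a subunit of complex IV, was highest at 14708 CPM per kilobase and lay above MT-CO2 in all 8 tumours. MT-CO2 (9717) and MT-CO1 (9631), the other mtDNA-encoded subunits of complex IV, could not be ordered, since MT-CO2 was above MT-CO1 in only 3 of 8 tumours. MT-ND4 followed at 7954, then the large ribosomal RNA MT-RNR2 at 7235, MT-ATP6 at 6845 and MT-ND1 at 6096. MT-CYB, the mtDNA-encoded subunit of complex III, was at 4323.

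In the lower part of the order the neighbours were close. MT-ND4L was at 3949 CPM per kilobase, MT-ND2 at 3678, MT-ATP8 at 3512, MT-ND3 at 3085 and MT-ND5 at 2880. MT-ND2 exceeded MT-ATP8 in 5 of 8 tumours, and MT-ND3 exceeded MT-ND5 in 5 of 8. Counting only bases that no other mtDNA gene covers moved MT-ATP8 from rank 11 to rank 8. The same count moved MT-ATP6 (7352) to rank 5, above MT-RNR2 (7235), so the order of MT-ATP6 and MT-RNR2 is not settled. The small ribosomal RNA MT-RNR1 was at 1428, below MT-ND5 in all 8 tumours. Whether RNA selection in library preparation affected the places of the rRNAs among the mRNAs was not tested. MT-ND6 was lowest at 204 CPM per kilobase, below MT-RNR1 in all 8. The libraries' strand setting is not given in the sources used here, so reads of MT-ND6 and reads of the opposite strand cannot be told apart.

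**Figure D1:**
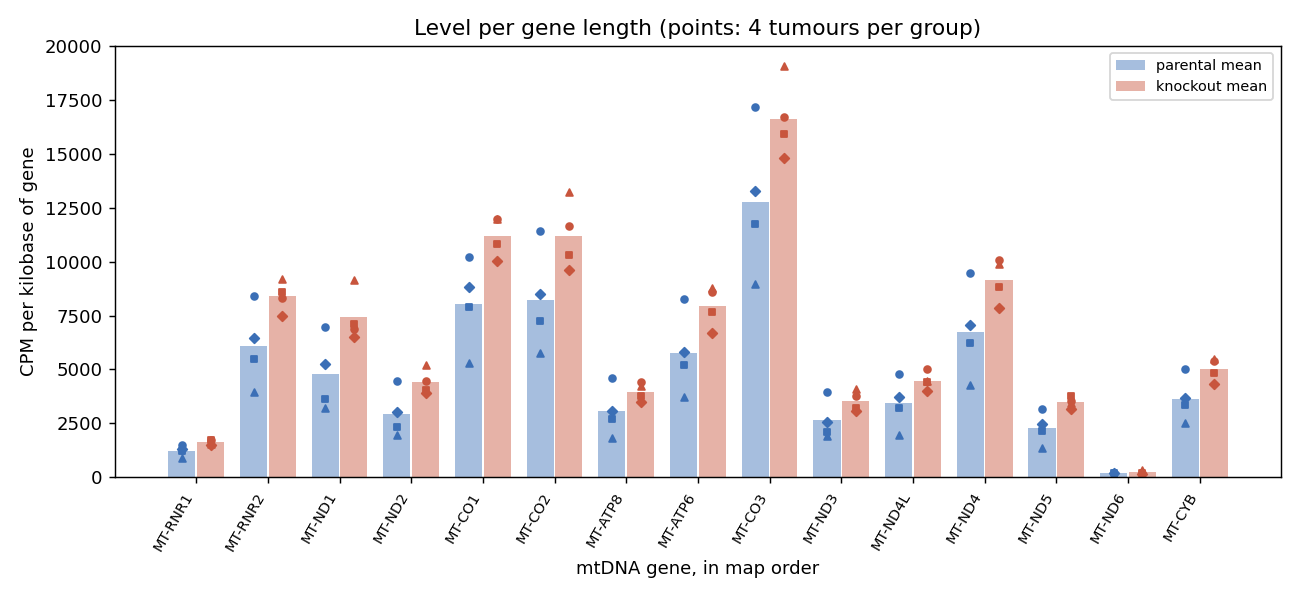
CPM per kilobase of gene (vertical axis, from 0) for the 13 protein-coding and 2 rRNA genes of mtDNA in map order. Bars are group means over 4 tumours and points are tumours. MT-CO3 is highest and MT-ND6 lowest in both groups.

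The knockout tumours were then compared with the parental tumours, to ask whether loss of SMARCA4 goes with a different level of mtDNA transcripts. All 25 mtDNA genes that passed the count filter had a positive log2 fold change, against 50.5% of all genes tested. These genes share long transcripts and are not independent, so the 25 are not separate results. Only MT-ND5 passed the test, 1 of 25 against 13% of all genes called higher (edgeR quasi-likelihood test, Benjamini-Hochberg adjusted p under 0.05 over 16219 genes). None was called lower, against 14.1% of all genes. At an unadjusted p under 0.05, 11 of the 25 were higher, against 18.9% of all genes tested. No mtDNA gene had CPM ranges that were apart between the groups, whereas 14% of all genes lay entirely higher in knockout. The 25 had a median log2 fold change of 0.46, beside 0.0034 over all genes. The 13 protein-coding and 2 rRNA genes ran from 0.34 to 0.64 on the log2 scale.

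The parental tumours spread more widely than the knockout tumours. Mitochondrial genes took 9.47%, 6.47%, 7.63% and 4.74% of gene counts in parental replicates 1 to 4. In knockout replicates 1 to 4 they took 9.91%, 9.49%, 8.57% and 10.9%. The means were 7.08% ± 1.99 and 9.73% ± 0.985 (SD, n = 4 each), 2.65 percentage points apart, and the groups overlapped. Parental replicate 1 was thus at the level of the knockout tumours, and parental replicate 4 was lowest. Parental replicate 4 had the lowest CPM of all 8 tumours for every one of the 15 mRNA and rRNA genes. Parental replicate 1 lay above the lowest knockout tumour for all 15, and for 14 of them it was the only parental tumour to do so. The exception was MT-ND6.

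Leaving out parental replicate 1 gave 15 mtDNA genes called higher, against 10.3% of all genes in that fit. They were 11 protein-coding genes, both rRNAs, MT-TF and MT-TI. MT-ND4L and MT-ND6 were the protein-coding genes not called. Leaving out parental replicate 2 or 3, or any knockout tumour, gave 0 called by edgeR, with 4 to 12 at an unadjusted p under 0.05. Over all genes, the same fits called 1644 to 2308 higher, of 16443 to 16597 tested. Leaving out parental replicate 4 kept the MT-ND5 call alone and gave a median log2 fold change of 0.30 over the 15 mRNA and rRNA genes, against 0.44 with all tumours. The share of reads in no annotated feature was 6.08% in parental replicate 4 and 10.4% in knockout replicate 4. These tumours had the lowest and highest values of both this share and the mitochondrial share. The places in both orders were also the same for parental replicate 3 and knockout replicates 2 and 3. They had 6.95%, 8.56% and 7.32% in no feature, and mitochondrial shares of 7.63%, 9.49% and 8.57%. Knockout replicate 1 (8.53% and 9.91%) and parental replicates 1 and 2 did not keep the same place. Parental replicate 1 had 6.54% in no feature and a mitochondrial share of 9.47%, whereas parental replicate 2 had 8.76% and 6.47%. Cardiac muscle markers (MYH6 and 2 others) summed to 0.517 to 1.02 CPM in the parental group and to 1.70 to 3.22 CPM in the knockout group. The 2 that passed the count filter were called higher, against 13% of all genes tested. MYH6, at 3 or fewer counts per library on average, was not among them. The part of the no-feature reads, or of the cardiac muscle and other marker lists, in the result was not tested.

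**Figure D2:**
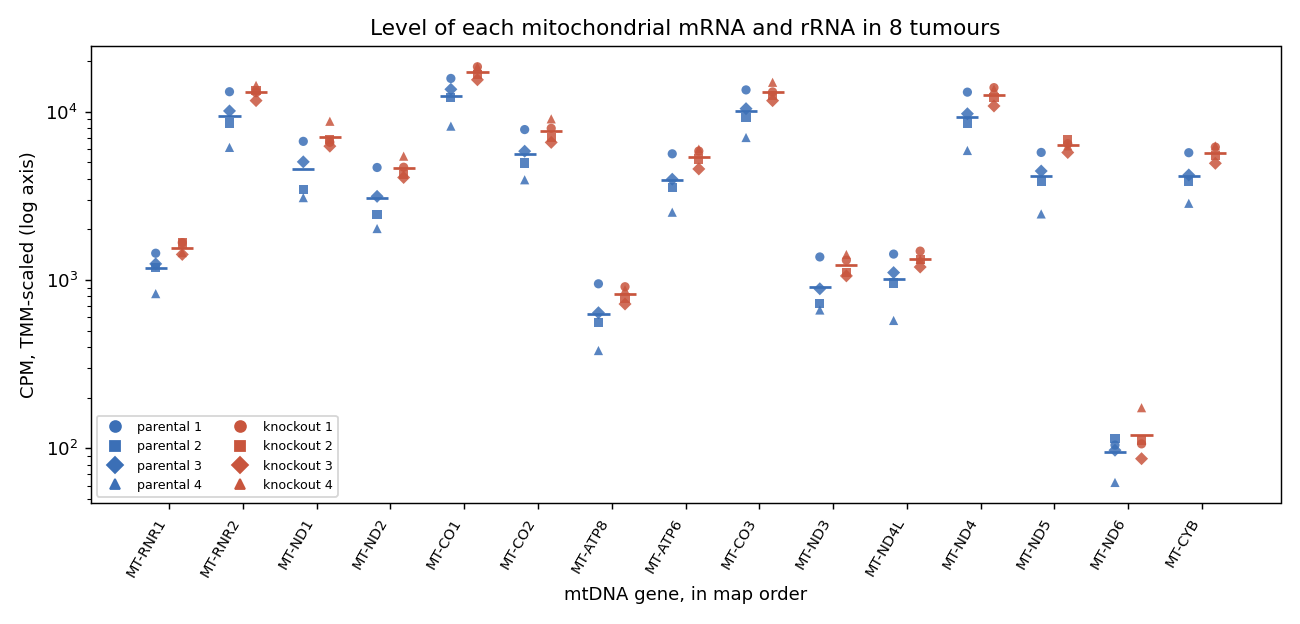
CPM (vertical log axis) of the 13 protein-coding and 2 rRNA genes in map order, with 1 point per tumour and a line at each group's mean. Parental replicate 4 is the lowest point for all 15 genes, and parental replicate 1 lies above the lowest knockout tumour in all 15.

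Complex I, which takes electrons from NADH, has 7 subunits encoded in mtDNA. MT-ND5 (chrM:12337-14148) was at 5723, 3847, 4439 and 2468 CPM in parental replicates 1 to 4 and at 6446, 6842, 5717 and 6268 CPM in knockout replicates 1 to 4. The groups met only where parental replicate 1 lay just above knockout replicate 3. The means were 4119 ± 1351 and 6318 ± 467 CPM (SD, n = 4 each). The fold change was 1.53, with a 95% interval of 1.17 to 2.01, and edgeR's adjusted p was 0.0407. The exact two-sided permutation test on CPM gave p = 0.0571, where 4 against 4 tumours cannot go below 0.0286. Over the fits that left out a tumour, edgeR's adjusted p ran from 0.0087 to 0.0952, and 6 of 8 lost the call.

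MT-ND1 (chrM:3307-4262), another core subunit of complex I, was at 6660, 3460, 5032 and 3084 CPM in the parental group and at 6572, 6814, 6235 and 8767 CPM in the knockout group. Parental replicate 1 lay inside the knockout range, and the other parental tumours lay below it. Its log2 fold change was 0.64 ± 0.218 (SE), close to that of MT-ND5 at 0.62 ± 0.200, with an adjusted p of 0.05001 that fell just above the threshold (edgeR). MT-ND2 had a log2 fold change of 0.58 (adjusted p = 0.0698), MT-ND4 of 0.44 (0.126), MT-ND3 of 0.42 (0.152) and MT-ND4L of 0.39 (0.210). MT-ND6, on the light strand, was at 104.5, 114.3, 97.4 and 62.7 CPM in the parental group and at 106.3, 110.9, 86.8 and 174.3 CPM in the knockout group. Only knockout replicate 4 stood above the parental tumours for MT-ND6, and the adjusted p was 0.293.

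The ends of MT-ND1 and MT-ND5 show how these messages differ in the genome. MT-ND1 ends in an incomplete codon and is 1 of 6 mRNA genes, of 13, whose length is not a multiple of 3. In the cell the stop codon of such messages is completed by adding A at the 3′ end. MT-ND5 carries a full stop codon. The capitals mark the bases after the last sense codon.
MT-ND1, last 30 bases: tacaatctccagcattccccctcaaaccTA
MT-ND5, last 30 bases: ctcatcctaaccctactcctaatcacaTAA

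Complex IV, cytochrome c oxidase, passes electrons to oxygen. MT-CO1, its catalytic subunit, was at 15747, 12152, 13576 and 8200 CPM in the parental group and at 18475, 16707, 15463 and 18486 CPM in the knockout group. As for MT-ND1, parental replicate 1 alone reached the knockout range. The log2 fold change was 0.48 ± 0.168 (SE, adjusted p = 0.0559). MT-CO2, which holds a copper centre, gave 0.44 (adjusted p = 0.103), and MT-CO3 gave 0.38 (0.126). MT-CYB, which is cytochrome b of complex III, gave 0.46 (0.0776). In complex V, MT-ATP6 gave 0.46 (0.111) and MT-ATP8 gave 0.38 (0.230). None of these passed the test.

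The ribosomal RNAs form the core of the mitochondrial ribosome. MT-RNR2, the large one, was at 13130, 8572, 10096 and 6131 CPM in the parental group and at 12974, 13385, 11628 and 14324 CPM in the knockout group. MT-RNR1, the small one, was at 1442, 1182, 1246 and 830 CPM in the parental group and at 1667, 1659, 1418 and 1455 CPM in the knockout group. In both, only parental replicate 1 overlapped the knockout tumours. The log2 fold changes were 0.46 (adjusted p = 0.0923) and 0.40 (0.0668).

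**Figure D3:**
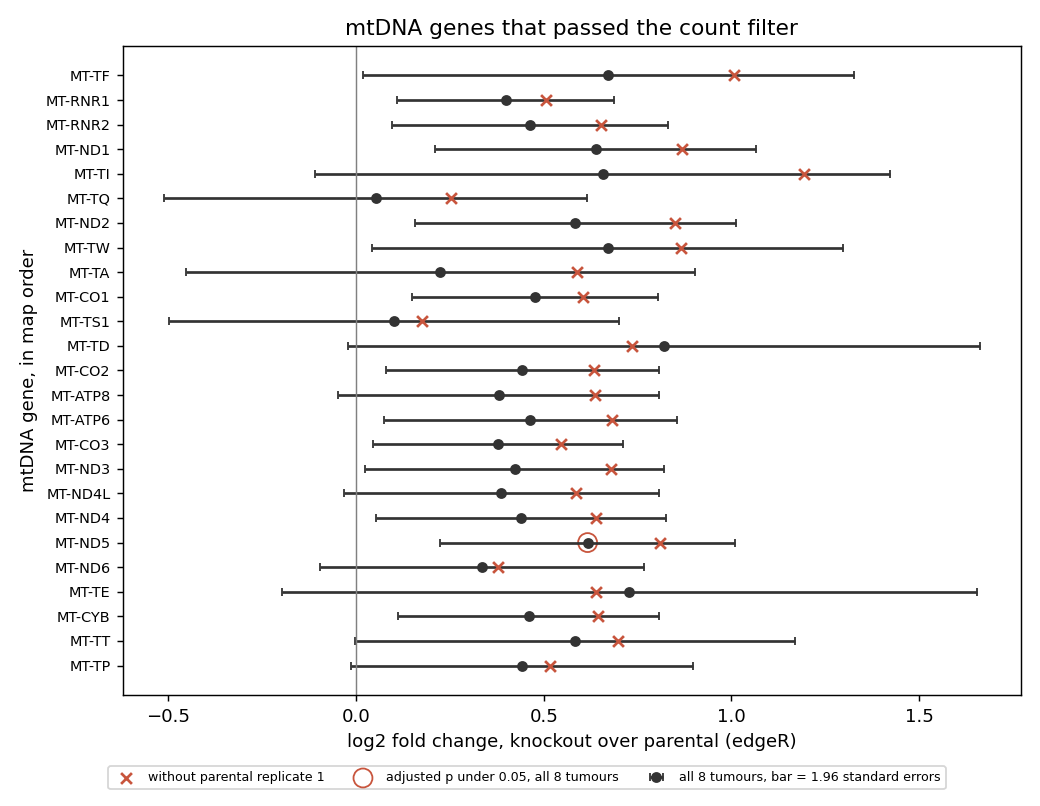
Log2 fold change, knockout against parental (edgeR), of the tested mtDNA genes, with 95% intervals from the standard errors as bars. Crosses are the estimates without parental replicate 1 and the circle marks the adjusted p under 0.05 of MT-ND5. All 25 estimates lie above 0.

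Few counts were assigned to the transfer RNA genes. They held 8020 counts over 8 libraries, 0.0562% of mitochondrial counts. These genes are 59 to 75 bases long, and the length of fragments kept in the libraries is not given in the sources used here. Ambiguous reads, 3.98% to 4.31% of all reads, are in no gene's counts, and the part of them from tRNA genes was not tested. MT-TT, for threonine, held 4931 of the counts (61.5%), followed by MT-TF, for phenylalanine, with 1064 and MT-TI, for isoleucine, with 547. A further 8 tRNA genes had 0 counts in every library, MT-TV for valine and MT-TG for glycine among them. The genes with the most counts and these examples at 0 are similar in length.
MT-TT: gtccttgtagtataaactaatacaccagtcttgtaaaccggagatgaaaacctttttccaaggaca
MT-TF: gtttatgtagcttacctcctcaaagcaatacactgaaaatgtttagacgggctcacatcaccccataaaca
MT-TV: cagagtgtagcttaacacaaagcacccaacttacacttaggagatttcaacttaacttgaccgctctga
MT-TG: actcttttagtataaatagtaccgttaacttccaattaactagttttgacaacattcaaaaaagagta

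The counts were set beside the position of each tRNA gene. Of the 7 tRNA genes with a same-strand mtDNA gene within 3 bases on both sides, 6 had 0 counts, and the exception, MT-TL1, had 23. Of the 12 with such a neighbour on 1 side, 2 had 0 counts, MT-TN and MT-TK. None of the 3 with no such neighbour was at 0, and they had 155 to 301 counts. With neighbours on either strand counted, the split was weaker, with 6 of 13 tRNA genes at 0 where both sides were occupied and 2 of 9 where 1 side was. The distance of 3 bases and the strand condition were chosen after the counts were seen, and the libraries' strand setting is unknown.

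Of the 22 tRNA genes, 10 passed the count filter. None of these was called, against 13% of all genes called higher and 14.1% lower. Their log2 fold changes ran from 0.05 for MT-TQ to 0.82 for MT-TD. MT-TT was at 29.01, 13.2, 30.2 and 20.2 CPM in the parental group and at 20.9, 37.6, 27.4 and 52.9 CPM in the knockout group. The groups overlapped in MT-TT, with a log2 fold change of 0.58 (adjusted p = 0.178, edgeR).

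Shares within the mitochondrial counts remove differences in the total. Of the 15 mRNA and rRNA genes, only MT-CO3 had shares that were apart between the groups, 1 of 15. Over all genes tested, 26.7% had counts relative to the mitochondrial total that were apart. MT-CO3 took 13.9%, 14.3%, 14% and 15.04% of mitochondrial counts in parental tumours and 12.9%, 13.1%, 13.5% and 13.8% in knockout tumours. Its mean share fell by 1.01 percentage points, from 14.3% ± 0.520 to 13.3% ± 0.400 (SD, n = 4 each), while its CPM gave the positive log2 fold change above. The exact two-sided permutation p was 0.0286, the smallest this design allows, before adjustment over 15 genes.

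MT-ND5 took 5.79% ± 0.335 of mitochondrial counts in parental and 6.48% ± 0.579 in knockout tumours, and MT-ND1 took 6.41% ± 0.685 and 7.23% ± 0.663 (SD, n = 4 each). Neither difference passed the test (exact two-sided permutation p = 0.114 and 0.143), and the groups overlapped in both. Complex I messages together made up 38.2% ± 1.46 of mitochondrial mRNA counts in parental and 40.0% ± 0.381 in knockout tumours, and complex IV messages 47.2% ± 1.57 and 45.6% ± 0.432. The groups overlapped for both complexes. The rRNAs held 15.1% ± 0.150 and 14.97% ± 0.618 of mitochondrial counts. MT-ND6 took its highest shares in parental replicate 2 (0.178%) and knockout replicate 4 (0.161%), against 0.101% to 0.134% in the other tumours.

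**Figure D4:**
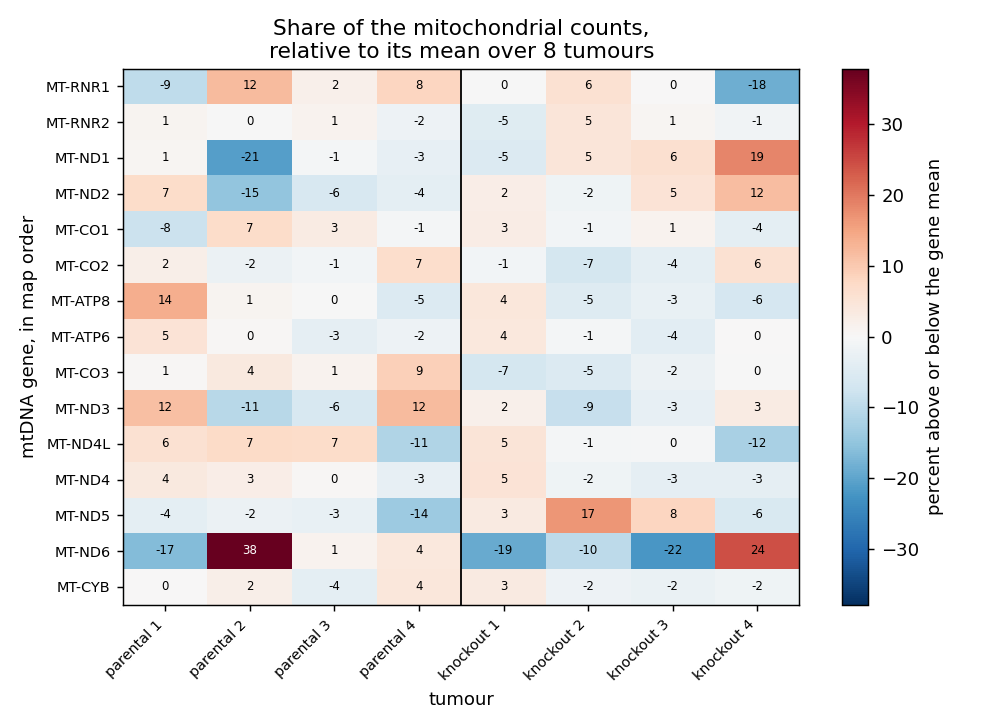
Share of each gene within a tumour's mitochondrial counts, as percent above or below that gene's mean over 8 tumours (colour and printed value), with genes in rows and tumours in columns. MT-CO3 is lower in all knockout tumours than in all parental tumours, and MT-ND6 is highest in parental replicate 2 and knockout replicate 4.

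The nuclear genome carries old copies of mtDNA, whose reads can be mistaken for those of mtDNA. The files list 407 such copies, of which 53 had counts, and together these held 127900 counts, 0.896% of the mitochondrial counts. MTATP6P1 (chr1:633696-634376) held 82.1% of them. It is 98.5% identical to MT-ATP6, with 10 of 681 positions different and a longest run of 141 bases without a difference. The windows with the most differences are shown, the capitals marking the 4 positions that differ.
MT-ATP6, chrM:8599-8718, plus strand: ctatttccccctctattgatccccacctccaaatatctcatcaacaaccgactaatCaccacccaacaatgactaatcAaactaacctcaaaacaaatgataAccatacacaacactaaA
MTATP6P1, chr1:633768-633887, plus strand: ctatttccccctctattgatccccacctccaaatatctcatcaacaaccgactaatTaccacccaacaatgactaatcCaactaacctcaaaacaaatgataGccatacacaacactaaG

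The counts of MTATP6P1 came to 13.1% to 14.1% of those of MT-ATP6 in each tumour, with group means of 13.5% ± 0.415 and 13.2% ± 0.117 (SD, n = 4 each). Its log2 fold change was 0.44, beside 0.46 for MT-ATP6. MTND2P28 (chr1:629640-630683) came to 2.62% to 2.94% of MT-ND2 and had a log2 fold change of 0.56, beside 0.58 for MT-ND2. MTCO1P12 came to 0.0706% to 0.154% of MT-CO1. All 8 tested copies had a positive log2 fold change, against 50.5% of all genes tested. None was called by edgeR, against 13% of all genes called higher and 14.1% lower. Values of MT-ATP6 and of MTATP6P1 are uncertain to the extent that reads were placed on the wrong copy.

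Nuclear genes that make and use mtDNA transcripts were compared in the same fit. Over 12 lists with 288 genes, 282 were tested, of which 15 were called higher and 9 lower, against 13% and 14.1% of all genes. Their median log2 fold change was 0.01. Nuclear subunits of complexes I to V had 7 of 80 called higher and 1 lower, with a median of 0.08, beside 0.46 for the 25 mtDNA genes. The mtDNA genes and the nuclear subunits of the same complexes thus differed in median, a difference that was not tested.

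The calls in each list stand beside 13% of all genes called higher and 14.1% called lower. In transcription, 1 of 10 genes was called higher and none lower. It was POLRMT, the mitochondrial RNA polymerase, at 53.9 to 59.4 CPM in the parental group and at 61.6 to 77.7 CPM in the knockout group. Its log2 fold change was 0.27 (adjusted p = 0.0430), and the adjusted p reached 0.0953 when a tumour was left out (edgeR). TFAM, which packages mtDNA and starts transcription, had a log2 fold change of 0.06 (adjusted p = 0.788), and TFB2M, which opens the promoter, had -0.13 (0.494). In replication, 1 of 22 was higher and 1 lower. POLG2, the accessory subunit of the mtDNA polymerase, was at 14.7, 13.99, 13.2 and 12.99 CPM in the parental group and at 23.7, 23.4, 19.3 and 26.2 CPM in the knockout group. The groups lay apart, and the log2 change was 0.76 ± 0.112 (SE), with an adjusted p of 0.000476. ATAD3A, a membrane ATPase of the nucleoid, fell by 0.36 on the log2 scale (0.0391), but its groups overlapped and the adjusted p reached 0.116 when a tumour was left out (edgeR).

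In RNA processing and decay, 1 of 34 genes was called, FASTKD3, an RNA-binding protein (log2 fold change 0.37, adjusted p = 0.0154), which overlaps MTRR in the annotation. LRPPRC and SLIRP, which form a complex that stabilises mitochondrial mRNAs, had log2 fold changes of -0.0002 (adjusted p = 1.00) and 0.07 (0.774). Of 79 mitochondrial ribosomal proteins, MRPL34 (0.61) and MRPS25 (0.48) rose, and MRPL49 (-0.47) and MRPS18A (-0.28) fell. Among 32 translation genes, the tRNA synthetases CARS2 (0.32) and VARS2 (0.35) rose, while TARS2 (-0.37) and the elongation factor GFM1 (-0.36) fell.

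Of the 12 biogenesis regulators, 1 was called higher and 2 lower, against 13% and 14.1% of all genes. PPARGC1A, a coactivator of mitochondrial biogenesis, was at 24.3, 20.7, 11.2 and 11.2 CPM in the parental group and at 56.8, 46.0, 48.9 and 33.2 CPM in the knockout group. Every knockout tumour was above every parental tumour, and the log2 change was 1.46 ± 0.256 (SE), with an adjusted p of 0.00147. PPARGC1B, a related coactivator, fell by 0.53 on the log2 scale (adjusted p = 0.0198), and the nuclear receptor ESRRG fell by 2.41 from 56 to 10 counts per group (0.00172).

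Among nuclear subunits of the respiratory complexes, NDUFV2 (0.95), NDUFA6 (0.37) and NDUFB1 (0.52) of complex I rose on the log2 scale. So did UQCRB (0.32) of complex III, COX6B2 (0.79) of complex IV, and ATP5PD (0.44) and ATP5MG (0.45) of complex V. The ATP synthase inhibitor ATP5IF1 fell by 0.33. NDUFV2 had few counts, 157 in the parental group and 301 in the knockout group. The calls of NDUFA6, UQCRB, COX6B2 and ATP5IF1 were lost when some tumour was left out, with adjusted p up to 0.0859, 0.0630, 0.0935 and 0.130 (edgeR), and the groups overlapped for NDUFA6 and ATP5IF1. Of the 24 called genes named by rule from these lists, 11 lost the call in at least 1 such fit, among them FASTKD3, MRPS18A, GFM1, CARS2 and PPARGC1B. Another annotated gene overlaps 20 of the 24, such as NDUFV2-AS1 with NDUFV2, FAU and SYVN1 with MRPL49, and ATP5MFP4 with POLG2. Their counts are uncertain because the strand setting is not given.

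**Figure D5:**
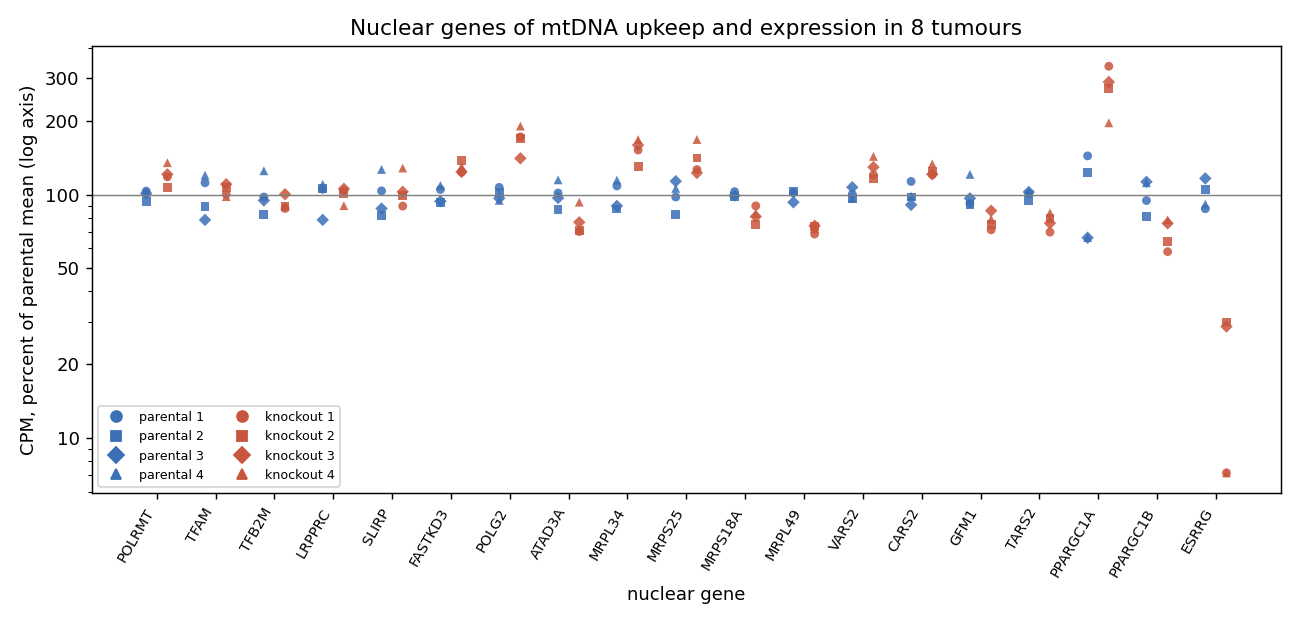
CPM of named nuclear genes (horizontal axis) in each of 8 tumours, as percent of the parental mean (vertical log axis), with 1 point per tumour. POLG2 and PPARGC1A are higher and ESRRG is lower in every knockout tumour than in every parental tumour, whereas TFAM, LRPPRC and SLIRP overlap.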

How the data were processed

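RNA from 8 H2122 xenograft tumours, 4 parental and 4 SMARCA4 knockout, was sequenced. The authors deposited whole-number read counts per gene for each sample. Per the submitters' processing notes, TopHat2 2.1.1, HTSeq 0.11.0 and hg38 were used. Counting options, annotation release and strand setting are not given in the sources used here, and the library kit named in the labels' protocols is one for DNA. The 5 summary lines were left out of library sizes: reads in no feature were 6.08% to 10.4%, ambiguous 3.98% to 4.31% and not unique 4.52% to 8.11%. Reads placed in several places are not counted, which can lower genes with copies.

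Counts were fitted with edgeR 4.0.16 in R 4.3.3 (TMM factors, filterByExpr with a minimum of 10 counts and a total of 15, quasi-likelihood test, group as the only term), with Benjamini-Hochberg adjustment over 16219 genes. The script was tested on simulated data with 200 changed genes. CPM and shares were compared by exact two-sided permutation tests. Intervals are 1.96 standard errors each way and are narrower than 95% intervals of the edgeR test. That of MT-ND3 ran from 1.02 to 1.77 fold, although its unadjusted edgeR p was 0.0611. Alternatives were RLE and upper-quartile factors, mtDNA genes left out of scaling, no filter, a replicate block, limma-voom 3.58.1, DESeq2 1.42.0 and leaving out each tumour. Sequences and coordinates come from GENCODE 29 on GRCh38.

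The members and gene lists were chosen with earlier results of these data known. Named genes are every mtDNA mRNA and rRNA gene, tRNA genes with a mean of at least 10 counts, SMARCA4, up to 5 called genes per list, POLRMT, TFAM, TFB2M, LRPPRC, SLIRP and the 3 nuclear copies with the most counts. A gene that this rule selects is not reported here. The tRNA genes named at or near 0 counts were chosen after their values were seen.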

Additional observations from a re-analysis of the deposited data

Results flagged for a closer look

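In 120 sets of 4 tumours, 4 held a tumour far from the other members of its group by Dixon's test, where chance gives about 5%. Parental replicate 4 took 1.23% of its mitochondrial counts for MT-ND4L, against 1.47% to 1.49% in the other parental tumours. The same tumour took 5.29% for MT-ND5, against 5.91% to 5.997%. Knockout replicate 1 took 6.06% for MT-CYB, against 5.73% to 5.77% in the other knockout tumours. Parental replicate 2 had 0.405 counts of MT-ND1 per count of MT-ND4, against 0.510 to 0.525.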

How the results depend on the processing

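The number of mtDNA genes called higher was 1 with TMM factors, with RLE factors and with mtDNA genes left out of scaling, 4 with upper-quartile factors, 5 without the filter, 4 with limma-voom and 6 with DESeq2. With the replicate block it was 2. Without the filter 29 mtDNA genes were tested, and 25 in the other fits. Of all 16219 genes, 2102 were called higher with TMM factors, 2054 with RLE factors and 2047 with mtDNA genes left out. With upper-quartile factors it was 2383, with limma-voom 2156, with DESeq2 2234 and with the block 1855. Without the filter it was 2144 of 33657. Leaving out a tumour gave 0 to 15 mtDNA genes called higher, the highest without parental replicate 1 (1716 of 16601 over all genes). The log2 fold change of each of the 15 mRNA and rRNA genes was positive in every alternative. Tumours with the same replicate number did not deviate together (correlations -0.283 to 0.120). None of the 4 parental tumours correlated best with its own number, and the pairing was not used. The replicate numbers were those in the labels, and the title of parental replicate 4 also holds another number that no knockout title has. For the machinery lists, 15 called higher became 11 to 29 when a tumour was left out (29 without parental replicate 4). The 9 called lower became 17 with DESeq2 and 4 to 18 when a tumour was left out (18 without parental replicate 2). Over all genes, 1935 of 16515 were called higher without parental replicate 4. Called lower were 2582 of 16219 with DESeq2 and 2413 of 16528 without parental replicate 2. Shares apart between groups numbered 1 to 2 when a tumour was left out, and 9 of 15 genes kept their place in the order with unshared lengths. The difference in the mitochondrial share of all counts, 2.65 points, ran from 1.87 to 3.45. Estimates near 0 changed sign. The LRPPRC log2 fold change was 0.0376 with upper-quartile factors, 0.0090 with the replicate block, 0.0096 with limma-voom and -0.10 to 0.04999 when a tumour was left out. In those fits MT-TQ ran from -0.11 to 0.25, MT-TS1 from -0.12 to 0.29, SLIRP from -0.0405 to 0.20 and TFAM from -0.0473 to 0.15. The cause was not tested. Of the 22 tRNA genes, 10 had enough counts to be tested.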

Other observations

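Of 6 ratios between mtDNA genes that were computed, 1 was apart between the groups. MT-ND5 had 0.420 to 0.457 counts per count of MT-ND4 in parental tumours and 0.461 to 0.561 in knockout tumours. The ratio was singled out after its values were seen, and no test is given. Over the 12 heavy-strand mRNA genes, the start position and the log2 fold change had a Spearman correlation of -0.31 across genes, which share long transcripts and are not independent.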
